A study of Mus musculus with 26 samples.

Results

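The comparison described here is between preadipocytes carrying a kinase-dead insulin receptor (K1030R) and preadipocytes carrying the wild-type receptor (IR), both treated with insulin. It rests on 6 of the 26 RNA sequencing libraries of the study, 3 of K1030R cells with insulin and 3 of IR cells with insulin, and on the 15402 of 52962 genes with more than 0.5 CPM (counts scaled by library size) in at least 4 of the 26 libraries. The same lines without insulin, 3 libraries each, were used to separate genes of the early insulin response from differences that stood between the lines before insulin was added.

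All of these cells descend from brown preadipocytes of newborn mice whose Insr and Igf1r genes are flanked by loxP sites, immortalized with SV40 T antigen. Both genes were inactivated with adenoviral Cre, which gave the double-knockout line (DKO). DKO cells then received a hygromycin-selected retrovirus with FLAG-tagged human receptor of the B isoform, or with an empty vector. The sources used here do not say whether the DKO libraries came from empty-vector cells. The receptor was wild type in IR cells and had the lysine that binds ATP in the kinase domain replaced by arginine in K1030R cells. Related lines carried a receptor without its C-terminal tail (∆CT) or with the juxtamembrane segment as the only intracellular part (JMO). After serum starvation, cells received insulin (15 min, 100 nM) or none (basal), so the immortalization, the knockout, the retroviral vector, and the starvation are shared by IR and K1030R cells. Each receptor was studied in 1 line, and nothing in the sources used here says that replicates were separately made lines or separate cultures. The p-values therefore measure the spread between replicate libraries, which may be technical. A difference between receptors cannot be told apart from a difference between these 2 lines.

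The insulin receptor is a tyrosine kinase that, once insulin binds, phosphorylates itself and docking proteins such as the IRS family. The routes that follow, such as PI3K to AKT and RAS to ERK, reach the nucleus within minutes, and the first transcripts to rise are immediate-early genes, which need no new protein synthesis. Many of them encode transcription factors of the EGR and AP-1 families or proteins that dampen the same signals, such as phosphatases of the DUSP family and RNA-binding proteins that destabilize mRNA.

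The 6 libraries held 19906103 to 21664769 counts, within the range of all 26 (17228982 to 24694828). Variation between replicate libraries, as edgeR's biological coefficient of variation, was 4.44%. On log2 CPM of the 12 IR and K1030R libraries the first principal component, with 28.8% of the variance, put IR libraries between -23.2 and -17.1 and K1030R libraries between 13.8 and 23.5. On the second component IR basal replicate 3 lay at 0.461, away from IR basal replicates 1 and 2 at 21.3 and 22.2. IR insulin replicate 2 lay at -4.32, away from IR insulin replicates 1 and 3 at -21.0 and -18.5. The preadipocyte and mesenchymal markers summed to 926 to 944 CPM in IR and 849 to 866 CPM in K1030R cells with insulin. Of the 7 tested, 3 were higher and 3 lower in K1030R cells without a minimum fold (16.7% and 17.3% of all tested genes). The 1 called was Pdgfra, a growth factor receptor of mesenchymal progenitors, which was lower in K1030R cells (log2 fold change -0.73). Its call was lost without IR insulin replicate 1 (log2 -0.70, adjusted p against a minimum fold of 0.0774 in edgeR). Of the markers of other cell types, Cidec, Lep, and Cfd of mature adipocytes, Ucp1, Cidea, and Dio2 of thermogenic adipocytes, Adgre1 and Tyrobp of leukocytes, Myod1 and Myog of muscle, and Sox10 of Schwann cells had 0 counts in all 6 libraries, while other members of each list were detected. The summed level in IR and K1030R cells with insulin was 0.555 to 0.902 and 1.40 to 1.51 CPM for mature adipocyte markers (1 of 1 tested higher in K1030R cells without a minimum fold), 13.9 to 14.3 and 7.88 to 9.21 CPM for thermogenic adipocyte markers (1 of 1 lower), 3.86 to 4.43 and 2.21 to 2.90 CPM for leukocyte markers (1 of 2 lower), and 6.61 to 8.06 and 5.23 to 5.74 CPM for Schwann and neural markers (1 of 2 lower). It was 12.4 to 15.3 and 7.03 to 11.9 CPM for endothelial markers (0 of 1 differing), 15.5 to 19.1 and 13.5 to 13.8 CPM for tendon markers (1 of 3 lower), 0.60 to 1.05 and 0.242 to 0.502 CPM for epithelial markers (1 of 1 lower), and 2.86 to 4.81 and 2.56 to 3.44 CPM for muscle markers (0 of 2 differing). None of these markers was called, and their part in the results was not tested. In bulk RNA, fewer cells of a type and less RNA per cell cannot be told apart.

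The 2 inactivated receptor genes were examined first. Insr had 89.8, 87.5, and 85.2 CPM in the IR libraries with insulin and 69.3, 65.5, and 69.8 CPM in the K1030R libraries. The groups did not overlap, and K1030R cells were lower by a log2 fold change of -0.36 (SE 0.0453, adjusted p = 1.08e-07). Without insulin the level was 67.7 ± 1.7 CPM in IR and 71.1 ± 5.24 CPM in K1030R cells (mean ± SD, n = 3 each, edgeR adjusted p = 0.277), and it was 23.8 ± 1.32 CPM in DKO cells (n = 3). IR and K1030R cells thus stood above the DKO line by log2 fold changes of 1.51 and 1.58, so the counts cannot be read as the endogenous gene alone, and whether reads of the human receptor put back were assigned to Insr was not tested. From no insulin to insulin, Insr changed by log2 values of 0.37 in IR and 0.32 in ∆CT cells. The difference in insulin effect, K1030R minus IR, was -0.43. The exchanged amino acid cannot be read from gene counts. Igf1r, the IGF-1 receptor, had 34.4 ± 0.292 CPM in IR and 33 ± 1.63 CPM in K1030R cells with insulin (n = 3 each, edgeR adjusted p = 0.42). The paper reports that DKO cells expressed neither receptor as mRNA or as protein. What the reads counted for these inactivated genes stand for was not tested, and they do not show that receptor protein was made. Unless stated otherwise, the adjusted p of a gene comes from the edgeR quasi-likelihood test without a minimum fold, adjusted by Benjamini-Hochberg over the 15402 genes. A gene is said to be called when its difference exceeded 1.5-fold in the edgeR test against that minimum, at an adjusted p under 0.05.

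With insulin in both lines, 193 genes were called (1.25% of those tested), of which 160 (1.04%) were lower and 33 (0.214%) higher in K1030R cells. Without a minimum fold 5230 genes differed (34%), 2664 lower (17.3%) and 2566 higher (16.7%), and the median log2 fold change over all tested genes was -0.02. Among the 193, 1 identifier without a symbol repeated the counts of Egr2 throughout and is treated as its duplicate. The 3 libraries of one line lay entirely apart from the 3 of the other in 193 of the 193 called genes and in 45.8% of all tested genes. Nearest to the threshold, Ppp1r15a was the last gene called (adjusted p = 0.0495 against the minimum fold in edgeR) and Trhde the first not called (0.0514).

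Each called gene was placed by 2 further edgeR tests with no minimum fold, the difference between the lines without insulin and the difference between their insulin effects. A gene was standing when the lines already differed in the same direction without insulin and the insulin effects did not differ at an adjusted p below 0.05, early-response when the insulin effects differed and the basal lines did not differ in that direction, both when both held, and unplaced otherwise. By this rule 159 genes were standing (129 lower, 30 higher), 17 early-response, 9 both, and 8 unplaced (5 lower, 3 higher). All 26 genes of the early-response and both classes, 25 apart from the Egr2 duplicate, were lower in K1030R cells.

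Without insulin 4650 genes (30.2%) differed without a minimum fold and 160 were called between the lines (1.04% of those tested), 132 lower (0.857%) and 28 higher (0.182%) in K1030R cells. The basal and insulin comparisons share no library, and 114 genes were called in both, each in the same direction, which is 71.25% of the basal list and 59.1% of the insulin list. Across the 159 standing genes the median difference between the 2 log2 fold changes was 0.127 in size, and 128 of them differed by less than 0.3. The Pearson correlation of the 2 fold changes was 0.975 over the standing genes, which were chosen for agreeing in direction, and 0.408 over all tested genes, as a description across genes, which are not independent replicates.

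**Figure D1:**
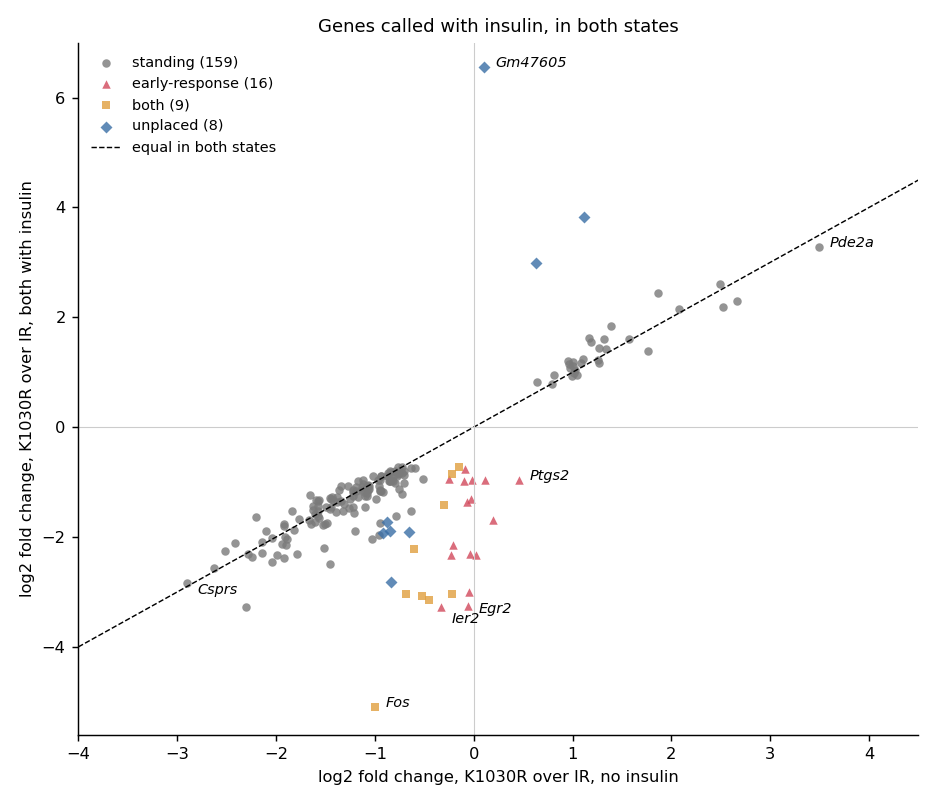
Log2 fold change of K1030R over IR cells without insulin (x axis) and with insulin in both lines (y axis) for 192 called genes, 1 point per gene, the Egr2 duplicate left out, with marker and colour by class and a dashed line where both values are equal. Of the 159 standing genes, which were chosen for agreeing in direction, 128 have values that differ by less than 0.3 between the states. The 25 early-response and both genes lie below the dashed line, down to Fos at -1.0 without and -5.10 with insulin.

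The early-response and both genes were examined by role, beginning with transcription factors. Egr1, Egr2, and Egr3 encode zinc-finger activators of the EGR family. Egr1 had 768, 762, and 774 CPM in IR cells with insulin and 100.0, 90.9, and 88.8 CPM in K1030R cells. Egr2 (chromosome 10:67535475-67542188, GRCm38, as all gene positions here) had 31.1, 31.6, and 30.5 CPM against 3.08, 3.83, and 2.83 CPM. Egr3 (14:70077203-70082614) had 59.4, 60.6, and 59.2 CPM against 7.4, 6.82, and 6.05 CPM. The lines did not overlap for any of the 3, and the log2 fold changes were -3.04, -3.25, and -3.15 (SE 0.0645, 0.105, and 0.0790). Their corepressors Nab1 and Nab2 did not differ (2 of the 5 tested members of the EGR list). Without insulin Egr1 and Egr3 were already lower in K1030R cells (log2 fold change -0.69 and -0.45, edgeR adjusted p = 4.75e-08 and 0.000385), whereas Egr2 was at -0.06 (adjusted p = 0.791).

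Fos, Fosb, Jun, and Junb encode subunits of the AP-1 factor. Fos (12:85473890-85477273) had the lowest log2 fold change of the 193, with 89, 95.3, and 96.6 CPM in IR and 3.03, 2.62, and 2.54 CPM in K1030R cells, 34.3-fold lower (log2 -5.10, SE 0.101, edgeR adjusted p = 9.88e-29). Without insulin the IR libraries had 5, 4.67, and 3.46 CPM and the K1030R libraries 1.95, 2.62, and 1.97 CPM (log2 -1.0, edgeR adjusted p = 1.18e-05), so Fos was placed in both. Fosb reached 9.91, 11.1, and 12.5 CPM in IR and 2.57, 2.34, and 2.29 CPM in K1030R cells (log2 -2.22). Junb and Jun, which were at equal levels in the lines before insulin (log2 -0.04 and -0.02), were 4.95-fold and 1.95-fold lower with insulin. Junb was at 139 ± 9.85 CPM in IR and 28 ± 1.5 CPM in K1030R cells, and Jun at 99.1 ± 5.47 and 50.9 ± 2.88 CPM (n = 3 each). Of the 11 AP-1 and small MAF genes tested, 4 were called (1.25% of all tested genes were). Without a minimum fold 8 were lower and 2 higher in K1030R cells (17.3% and 16.7% of all tested genes).

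Nr4a1, an orphan nuclear receptor, Klf2, a Krüppel-like factor, and Hes1, a repressor downstream of Notch, were further transcription factors. Nr4a1 had 36.5, 37.3, and 37.2 CPM in IR and 4.22, 4.49, and 4.44 CPM in K1030R cells, Klf2 39.2, 38.8, and 36.1 against 13.9, 14.8, and 13.8 CPM, and Hes1 22.3, 23.6, and 21.5 against 12.4, 11.5, and 10.6 CPM. In each case the lines did not overlap, with log2 fold changes of -3.07, -1.42, and -0.97. Basal levels of Nr4a1 and Klf2 were lower in K1030R cells by log2 values of -0.52 and -0.30 (edgeR adjusted p = 0.00173 and 0.00206), and Hes1 was at 0.11 (adjusted p = 0.409).

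The next group limits signalling or shortens the life of mRNA. Dusp1 and Dusp5 are phosphatases that inactivate MAP kinases, and Errfi1 binds and restrains the EGF receptor. Dusp5 had 19.1, 19.9, and 17.3 CPM in IR and 6.22, 5.75, and 5.56 CPM in K1030R cells (log2 -1.68), Errfi1 77.1, 69.7, and 76.2 against 31.8, 28.8, and 25.8 CPM (-1.37), and Dusp1 31.3, 33, and 32.3 against 16.6, 16.8, and 15.8 CPM (-0.97). These were the 3 called members among 16 tested genes of ERK feedback (1.04% of all tested genes were called lower). Of the 16, 6 were lower and 5 higher in K1030R cells without a minimum fold (17.3% and 16.7% of all tested genes). Zfp36, which binds AU-rich elements and promotes mRNA decay, was at 96.8 ± 2.53 CPM in IR and 11.7 ± 0.701 CPM in K1030R cells (n = 3 each), 8.24-fold lower. Btg2, an antiproliferative protein that recruits the deadenylase complex, had 125 CPM in each IR library and 24.5, 24.9, and 25.5 CPM in K1030R libraries, 5.01-fold lower (SE 0.045 on the log2 scale, edgeR adjusted p = 2.73e-29). Without insulin Btg2 was at 22.6 and 23 CPM in the 2 lines (log2 0.03).

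Genes of the IER, GADD45, and stress-response list followed. Ier2, a nuclear regulator, had 159, 173, and 165 CPM in IR and 19.3, 17.6, and 14.8 CPM in K1030R cells, 9.63-fold lower (log2 -3.27, SE 0.0991). Ier3, an early-response protein linked to cell survival, was at 62.9 ± 1.42 against 25.4 ± 0.277 CPM, and Gadd45g, a growth-arrest and stress sensor, at 19.1 ± 2.34 against 9.87 ± 0.293 CPM (n = 3 each). Ppp1r15a, which directs a phosphatase to the translation factor eIF2 alpha, and Ddit3, a stress-induced factor also named CHOP, were the least changed, 1.7-fold and 1.66-fold lower. Their calls were near the threshold. That of Ppp1r15a was lost in 18 of 22 alternatives, including 9 of the 12 in which 1 library was left out (adjusted p against the minimum fold from 0.0509 to 0.306 in edgeR), and that of Ddit3 in 7, including those without IR insulin replicate 1 or K1030R insulin replicate 2 or 3 (0.0862 to 0.171). Gadd45g was not called without IR insulin replicate 2 (log2 -0.84, adjusted p = 0.108 in edgeR), in which it was highest at 21.7 CPM.

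The remaining members act outside the nucleus or are noncoding. Ccn1, a secreted matricellular protein, had 209, 226, and 216 CPM in IR and 49.3, 50.7, and 47 CPM in K1030R cells (log2 -2.15), and Arc, a capsid-forming protein best known from synapses, had 53.7, 53.6, and 52 against 6.01, 6.5, and 7.41 CPM (-3.0). Rhob, a small GTPase of the cytoskeleton, was at 142 ± 5.67 against 78.7 ± 2.86 CPM (n = 3 each, log2 -0.85). Carmn, a long noncoding RNA that hosts microRNAs of smooth muscle, was the most variable, with 17.5, 13.5, and 11.5 CPM in IR and 2.83, 1.87, and 3.75 CPM in K1030R cells (log2 -2.33, SE 0.232). Ptgs2, the inducible cyclooxygenase, was the 1 member that was higher in K1030R cells before insulin at an adjusted p below 0.05 (38.6 against 53 CPM, log2 0.45, edgeR adjusted p = 0.000212) and lower after it, with 115, 124, and 121 against 65.4, 59, and 60.2 CPM (log2 -0.96).

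**Figure D2:**
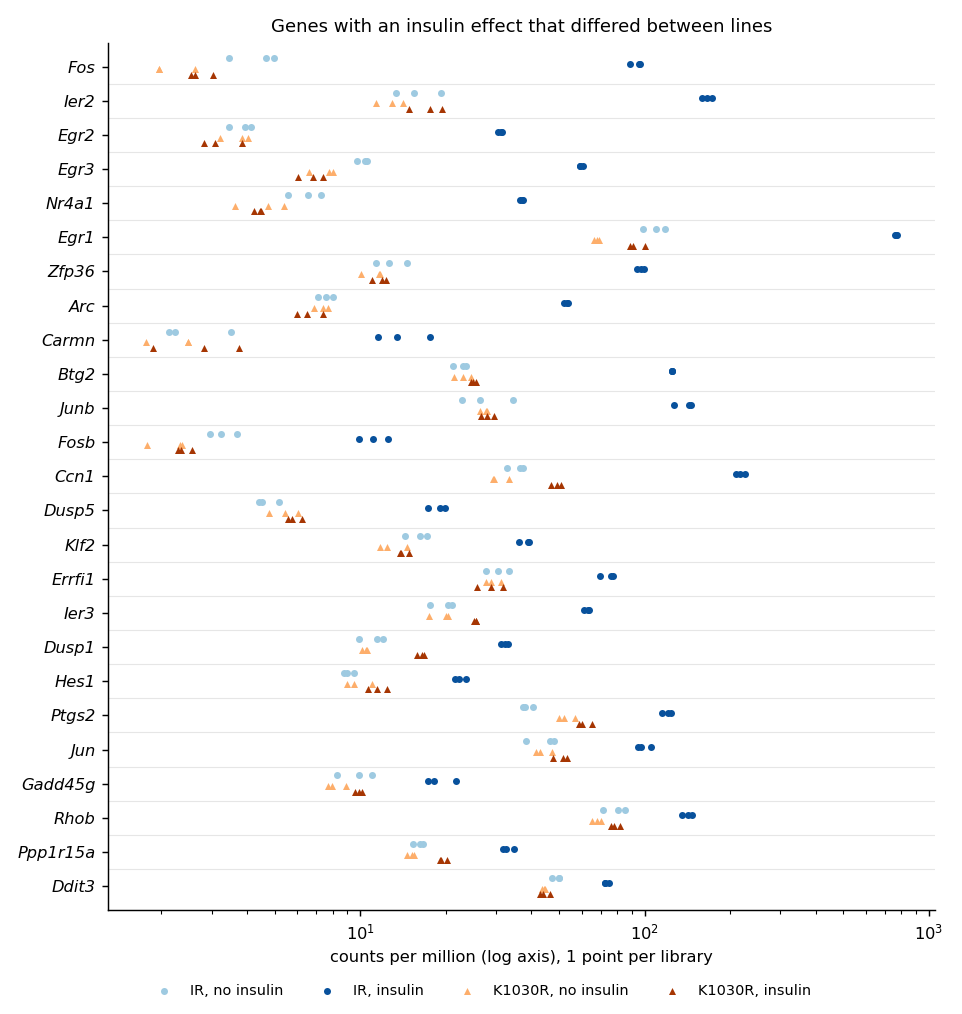
CPM on a log axis of the 25 early-response and both genes (rows) in the 12 IR and K1030R libraries, 1 point per library, with circles for IR and triangles for K1030R cells and darker colour for insulin. The 3 IR libraries with insulin lie to the right of the 3 K1030R libraries with insulin in every row, as for Fos at 89 to 96.6 against 2.54 to 3.03 CPM.

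Per kilobase of exon, which allows levels to be compared between genes, Egr1 (171 CPM per kb), Ier2 (109), and Ccn1 (108) were the highest of the 25 in IR cells with insulin, and Fosb (1.79) the lowest. In K1030R cells Rhob (33.5), Ddit3 (25.9), Ccn1 (24.3), and Ier3 (22.5) stood above Egr1 (20.8), and Fosb (0.384) was again the lowest. The median span of the 25 genes from first to last annotated base was 3.95 kb, and 20 of 25 (80%) spanned under 10 kb, compared with a median of 20.3 kb and 30.6% under 10 kb over the tested genes with an annotation. The median was 44.9 kb for standing genes lower and 52.8 kb for standing genes higher in K1030R cells.

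Within IR cells the levels of all 25 genes rose with insulin at an adjusted p below 0.05 in edgeR (1.4% of tested genes rose), and 24 passed the minimum fold (0.221% of tested genes), with a median log2 change of 1.99. These values share the IR libraries with insulin in which the genes were chosen. In K1030R cells the median log2 change of the 25 was 0.21, from -0.18 for Egr2 to 0.67 for Ccn1. None passed the minimum fold in edgeR, as no tested gene did in K1030R cells (938 of 15402 had an unadjusted p under 0.05 without one), and 5 rose without one (0.11% of tested genes rose). The 5 were Ccn1 (0.67, adjusted p = 3.51e-05), Dusp1 (0.66, 9.48e-06), Egr1 (0.46, 0.00201), Ier3 (0.40, 0.00673), and Ppp1r15a (0.37, 0.00673), in edgeR's quasi-likelihood test. Dusp1 went from 10.4 to 16.4 CPM and Ccn1 from 30.8 to 49 CPM in K1030R cells, against 11.1 to 32.2 and 35.5 to 217 CPM in IR cells.

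The insulin effects themselves differed between the lines in 57 genes (0.37% of those tested), all smaller in K1030R cells, and 26 of the 57 are the early-response and both genes. Without IR basal replicate 3, which lay away from its replicates on the second component, 182 genes differed, among them 56 of the 57. Within the 25 the differences furthest from 0 on the log2 scale were -4.10 for Fos, -3.19 for Egr2, -2.95 for Arc, and -2.93 for Ier2, and the nearest was -0.58 for Ddit3 (edgeR adjusted p = 7.39e-08). In the fit of the 12 IR and K1030R libraries alone Carmn was lost, and without K1030R basal replicate 1 Gadd45g was, while in the other 18 alternatives that refitted this test all 26 differed.

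The ∆CT line, whose receptor keeps the kinase, gave values from libraries that took no part in choosing the genes. In ∆CT cells all 25 rose with insulin at an adjusted p below 0.05 (0.935% of tested genes rose) and 24 passed the minimum fold (0.214% of tested genes), the exception being Ddit3 (log2 0.45, adjusted p = 3.76e-08 in edgeR). The median log2 change was 1.82, from 0.45 for Ddit3 to 5.20 for Fos, which went from 1.74 ± 0.465 CPM (n = 3) to 64 ± 5.61 CPM (n = 2). Compared with IR cells, both with insulin, 0 of the 26 identifiers, the Egr2 duplicate included, were called in ∆CT cells (0.636% of tested genes were called lower and 0.0195% higher), while 9 were lower and 1 higher without a minimum fold and 12 had an unadjusted p under 0.05. That comparison shares the IR libraries with insulin.

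**Figure D3:**
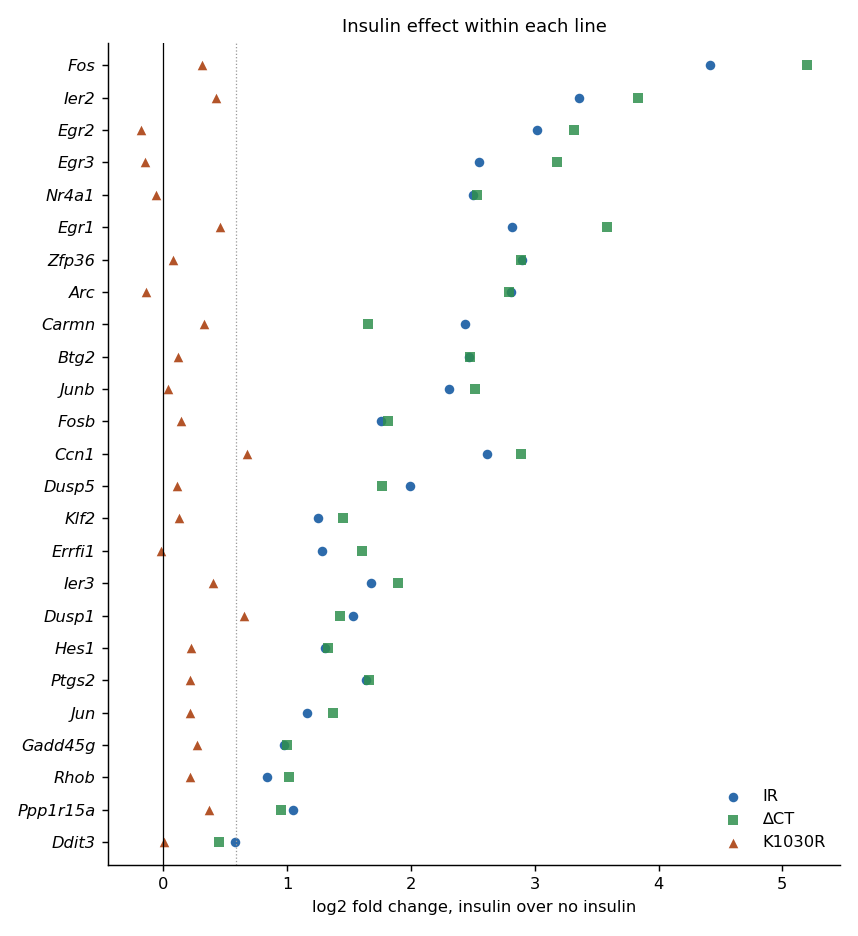
Log2 fold change of insulin over no insulin (x axis) for the 25 early-response and both genes in IR (circles), ∆CT (squares), and K1030R cells (triangles), with a dotted line at the minimum fold of 1.5. IR and ∆CT values run from 0.58 to 4.41 and from 0.45 to 5.20, and K1030R values from -0.18 to 0.67.

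Promoter sequence was examined for the 25 genes, which moved together. RefSeq starts on GRCm38.p6 matched 19 of the 25, and the 250 bases before each start were searched on both strands. The CArG box, the site of serum response factor, was found in 3 of 19 (Dusp5, Egr2, and Zfp36, 15.8%) and in 1.42% of the 10829 tested genes with a promoter. The cAMP response element TGACGTCA was found in 4 of 19 (Btg2, Dusp1, Errfi1, and Ppp1r15a, 21.1%) and in 2.84%, and the AP-1 site TGAGTCA or TGACTCA in 1 of 19 (Ddit3) and in 4.24%. A match describes the letters and does not show binding. Shown are the stretches around 1 CArG box (Egr2, chr10:67537762-67537841, plus strand) and around the response element in Btg2 (chr1:134079279-134079356, minus strand) and Dusp1 (chr17:26508573-26508650, minus strand), 5′ to 3′ in the direction of the gene, with the motif in capitals.
Egr2: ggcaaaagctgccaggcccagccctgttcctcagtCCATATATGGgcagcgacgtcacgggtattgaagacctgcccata
Btg2: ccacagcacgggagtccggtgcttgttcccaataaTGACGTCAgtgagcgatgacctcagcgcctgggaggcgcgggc
Dusp1: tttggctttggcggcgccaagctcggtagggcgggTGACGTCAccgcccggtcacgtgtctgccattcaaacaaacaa

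Among the standing differences, the genes that were lower in K1030R cells included genes induced by interferon and genes of the extracellular matrix. All 28 tested genes of the interferon-stimulated list were lower in K1030R cells with insulin without a minimum fold, compared with 17.3% of all tested genes, with log2 fold changes from -2.56 (Oas1g) to -0.43 (Ifit2) and a median of -1.03. Of the 28, 9 were called, each lower in K1030R cells (1.04% of all tested genes were called lower). All 28 were also lower without insulin (16.3% of all tested genes), with a median of -1.14, and 0 had an insulin effect in IR or K1030R cells or a difference between the effects at an adjusted p below 0.05 in edgeR (0, 1, and 1 of 28 at an unadjusted p under 0.05). The number called ranged over the alternatives from 3 at an adjusted p threshold of 0.001 to 28 without a minimum fold.

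Oas1a, Oas1g, and Oas2 are 2′-5′-oligoadenylate synthetases, which sense double-stranded RNA. Oas1g (5:120876142-120887613) had 11.5, 10.7, and 10.8 CPM in IR and 2.36, 2.06, and 1.17 CPM in K1030R cells with insulin, 5.89-fold lower (SE 0.222 on the log2 scale, edgeR adjusted p = 2.15e-08). Oas1a was at 26 ± 2.08 against 8.18 ± 1.57 CPM and Oas2 at 39.9 ± 3.99 against 11.5 ± 0.615 CPM (n = 3 each). Oasl2, a relative of this family, was at 214 ± 8.59 against 78 ± 11.2 CPM, and was not called without K1030R insulin replicate 2 (log2 -1.38, adjusted p against the minimum fold of 0.0564 in edgeR). Oas1a and Oas1g are closely related neighbours, so that the assignment of reads between them is uncertain, and the assignment among the other members was not tested.

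Other effectors moved alike. Isg15 (4:156199424-156200818), a ubiquitin-like modifier, had 50.1, 49.9, and 46.8 CPM in IR and 24.4, 15.6, and 17.9 CPM in K1030R cells (log2 -1.35). Rsad2, the antiviral enzyme viperin, had 4.34, 5.33, and 5.68 against 1.23, 0.888, and 0.878 CPM, and Cmpk2, its neighbour and a nucleotide kinase, was at 6.22 ± 0.338 against 2.02 ± 0.453 CPM (n = 3 each). Bst2, or tetherin, which holds budding virus at the membrane, was at 79.6 ± 8.26 against 37.9 ± 1.93 CPM and Ifi44 at 47 ± 1.65 against 18.9 ± 2.51 CPM. The lines did not overlap for any of these genes. The calls of Isg15 were lost without K1030R insulin replicate 2 or 3 (adjusted p from 0.0689 to 0.108), those of Ifi44 without either of these or IR insulin replicate 1 or 3 (0.0682 to 0.134), and those of Bst2 without any of 5 insulin libraries, all but IR insulin replicate 3 (0.0713 to 0.157), in edgeR against the minimum fold.

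The interferon list was also low in ∆CT cells, in a comparison that shares the IR libraries without insulin with the basal comparison of K1030R cells. All 28 were lower in ∆CT than in IR cells without insulin (14.8% of tested genes were), with a median log2 fold change of -1.47, and 21 were called (0.675% of tested genes). Between ∆CT and K1030R cells without insulin 0 of the 28 differed at an adjusted p below 0.05 in edgeR and 5 at an unadjusted p under 0.05 (1.94% of tested genes were lower and 1.49% higher in ∆CT cells). Isg15 was at 54.5 ± 9.26 CPM in IR, 18.3 ± 2.26 CPM in K1030R, and 16.6 CPM in ∆CT cells without insulin, and at 155 CPM in DKO and 114 CPM in JMO cells. Against DKO cells, 26 of 28 were lower in IR (24.1% of tested genes, median -0.95) and 28 of 28 in K1030R cells (20.4%, median -2.07), 2 comparisons that share the DKO libraries.

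The core of the interferon-stimulated response element, a motif chosen once the values were known, was found on either strand in the 250 bases before the start in 12 of 22 members of the interferon list that matched a RefSeq promoter (54.5%), in 10 of 77 standing genes lower in K1030R cells (13%), and in 3.26% of tested genes. Overlapping copies occur in Isg15 (chr4:156200840-156200931, minus strand) and Oas1g (chr5:120887614-120887666, minus strand), both shown here from the GRCm38.p6 promoters of RefSeq with the matched bases in capitals.
Isg15: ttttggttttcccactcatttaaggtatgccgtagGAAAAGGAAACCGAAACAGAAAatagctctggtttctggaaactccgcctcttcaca
Oas1g: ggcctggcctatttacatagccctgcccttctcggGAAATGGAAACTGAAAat

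Genes of the extracellular matrix differed by family. Of 17 fibrillar and fibril-associated collagen genes tested, 10 were lower and 0 higher without a minimum fold (17.3% and 16.7% of all tested genes). Of the 17, 3 were called (1.25% of all tested genes). Col3a1 (1:45311538-45349706), a main collagen of soft tissue, had 2845, 2836, and 2806 CPM in IR and 1589, 1615, and 1580.0 CPM in K1030R cells with insulin (log2 -0.83, SE 0.0359, edgeR adjusted p = 5.72e-19). Col11a1, a fibril-nucleating collagen, had 814, 762, and 786 against 421, 428, and 419 CPM (-0.90), and Col14a1, which sits on fibril surfaces, was rare, at 2.4 ± 0.447 against 0.54 ± 0.26 CPM (n = 3 each, -2.14). The lines did not overlap in any of the 3. Without insulin the log2 fold changes were -0.86, -0.87, and -1.90.

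In the other matrix families both directions occurred, beside 16.7% higher and 17.3% lower of all tested genes without a minimum fold. Without a minimum fold 7 were higher and 6 lower of 19 elastic fibre genes (median log2 fold change -0.02), 5 higher and 6 lower of 20 basement membrane and laminin genes (-0.01), 4 higher and 4 lower of 15 integrin subunits (0.04), 2 higher and 9 lower of 15 leucine-rich proteoglycan and tendon genes (-0.44), and 2 higher and 9 lower of 17 matrix proteases and their inhibitors (-0.15). The called members follow. Fbn2, a fibrillin of elastic microfibrils, was at 32.6 ± 1.09 CPM in IR and 11.5 ± 1.02 CPM in K1030R cells with insulin (n = 3 each, log2 -1.51), and Efemp1, a fibulin, was at 54 ± 2.95 against 27.5 ± 1.22 CPM. Lama4, a laminin chain, and Nid2, which links laminin to collagen networks, had log2 fold changes of -1.34 and -0.79. Dcn, the collagen-binding proteoglycan decorin, had 4.19, 2.99, and 3.95 against 0.72, 0.935, and 0.927 CPM (-2.09). Podn, a related leucine-rich protein, was 2.87-fold lower, a call that was lost without IR insulin replicate 1 or 2 or K1030R insulin replicate 1 (adjusted p against the minimum fold from 0.0540 to 0.107 in edgeR). Mmp2 and Mmp3, enzymes that degrade matrix, were 2.21-fold and 2.36-fold lower, and Itga10, a collagen-binding integrin, and Ccn3, a matricellular protein, were 1.95-fold and 2.12-fold lower.

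In the WNT and BMP list 3 of the 27 tested members were called, each lower in K1030R cells (1.04% of all tested genes were called lower). Wnt16, a secreted ligand, had 3.11, 2.94, and 2.67 CPM in IR and 0.617, 0.701, and 0.683 CPM in K1030R cells with insulin (log2 -2.11), and Bmper, which binds BMPs outside the cell, had 153, 139, and 144 against 83.9, 85.2, and 79.9 CPM (-0.81). Axin2, a feedback target of WNT signalling, was at 2.04 ± 0.25 against 0.733 ± 0.171 CPM (n = 3 each), and its call was lost without IR insulin replicate 2 or 3 or K1030R insulin replicate 3 (adjusted p from 0.0527 to 0.190 in edgeR). Of the 27 tested genes of this list, 10 were lower and 1 higher without a minimum fold (17.3% and 16.7% of all tested genes). Of the 8 tested skeletal muscle genes, 2 were called, both lower in K1030R cells (1.04% of all tested genes were called lower). They were Trdn, a calcium-release protein of muscle (3.7, 2.94, and 2.57 against 0.668, 0.561, and 0.585 CPM), and Car3, a carbonic anhydrase of muscle and fat (6.46, 4.82, and 6.76 against 1.34, 1.45, and 0.829 CPM). Without a minimum fold 2 of the 8 were lower, 1 higher, and 5 neither, with a median log2 fold change of 0.05. Over all tested genes 17.3% were lower and 16.7% higher. The 5 muscle markers, of which Myod1 and Myog had 0 counts, summed to 2.86 to 4.81 CPM in IR and 2.56 to 3.44 CPM in K1030R cells, and their part in these differences was not tested.

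The 12 lowest standing log2 fold changes ran from -3.28 (Trim30c) to -2.26 (Gm4951). Besides Oas1g, Rsad2, Trdn, and Car3 they included Gbp8, a guanylate-binding GTPase, Gcnt1, a glycosyltransferase of O-glycans, Hmcn1, a large matrix protein, and Adamts17, a secreted protease. Hmcn1 had 3.7, 2.94, and 2.12 CPM in IR and 0.668, 0.701, and 0.293 CPM in K1030R cells, and Adamts17 4.34, 3.81, and 4.44 against 1.03, 0.701, and 0.829 CPM. Gcnt1 (log2 -2.49), Csprs (-2.84), F830016B08Rik (-2.30), and Gm4951 are the others of the 12. Several rest on few reads. Trim30c, of the TRIM family, had 23 counts in the 3 IR and 2 in the 3 K1030R libraries, a ratio of 11.5 with an exact 95% counting interval from 2.83 to 100.2. Its call was lost without IR insulin replicate 3 or K1030R insulin replicate 3 (adjusted p 0.0529 and 0.0744 in edgeR), and that of Gbp8 without each of the 12 libraries in turn (0.0522 to 0.231).

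The 30 standing genes that were higher in K1030R cells had log2 fold changes from 0.79 to 3.29. Ccnd1 and Ccnd2, the D-type cyclins that drive entry into the cell cycle, were the 2 called members among 22 tested cyclin and CDK inhibitor genes. Over all tested genes 0.214% were called higher. Of the 22, 11 were higher and 5 lower without a minimum fold (16.7% and 17.3% of all tested genes). Ccnd1 (7:144929931-144939925) had 15.8, 16.1, and 16.4 CPM in IR and 46.7, 38.9, and 43.8 CPM in K1030R cells with insulin, 2.68-fold higher (log2 1.42, SE 0.156, edgeR adjusted p = 1.09e-06). Ccnd2 had 4.14, 3.26, and 3.7 against 8.53, 8.32, and 8 CPM (log2 1.16). Without insulin the log2 fold changes were 1.34 and 1.27.

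Adcyap1r1, the receptor for the peptide PACAP, was the most abundant of the 8 highest, with 16, 19.8, and 18.3 CPM in IR and 79.5, 78.3, and 82.2 CPM in K1030R cells (log2 2.15, SE 0.127, edgeR adjusted p = 2.58e-10). Cited1, a transcriptional coactivator, was at 1.11 ± 0.299 against 3.97 ± 0.282 CPM (n = 3 each). Lcn2, the iron-binding protein lipocalin 2, had 1.38, 1.65, and 1.73 against 4.22, 4.53, and 4.19 CPM. Tnc, the matrix protein tenascin C, was higher at 50 ± 0.904 against 28.9 ± 2.07 CPM, but its call was lost without any of 9 of the 12 libraries (adjusted p against the minimum fold from 0.0564 to 0.330 in edgeR). Of the remaining 6 of the 8 highest, Pde2a and Pde10a are phosphodiesterases of cyclic nucleotides, Slc6a12 is a transporter of betaine and GABA, Mcpt8 a protease named from mast cells, Cyp4a12b a cytochrome P450, and Gm5886 a pseudogene. Pde10a, Slc6a12, Mcpt8, and Cyp4a12b averaged between 0.113 and 0.180 CPM in IR and between 0.643 and 0.917 CPM in K1030R cells, and DESeq2 called none of these 6. Pde2a varied within the IR line, with 0, 0.0919, and 1.88 CPM against 5.55, 7.01, and 6.44 CPM in K1030R cells. Calls were lost without 1 insulin library for Pde2a in 5 cases (adjusted p from 0.0623 to 0.185), Slc6a12 in 4 (0.0520 to 0.0711), Pde10a and Mcpt8 in 3 each (0.0550 to 0.0826 and 0.0556 to 0.139), and Gm5886 in 1 (0.0540), in edgeR against the minimum fold.

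**Figure D4:**
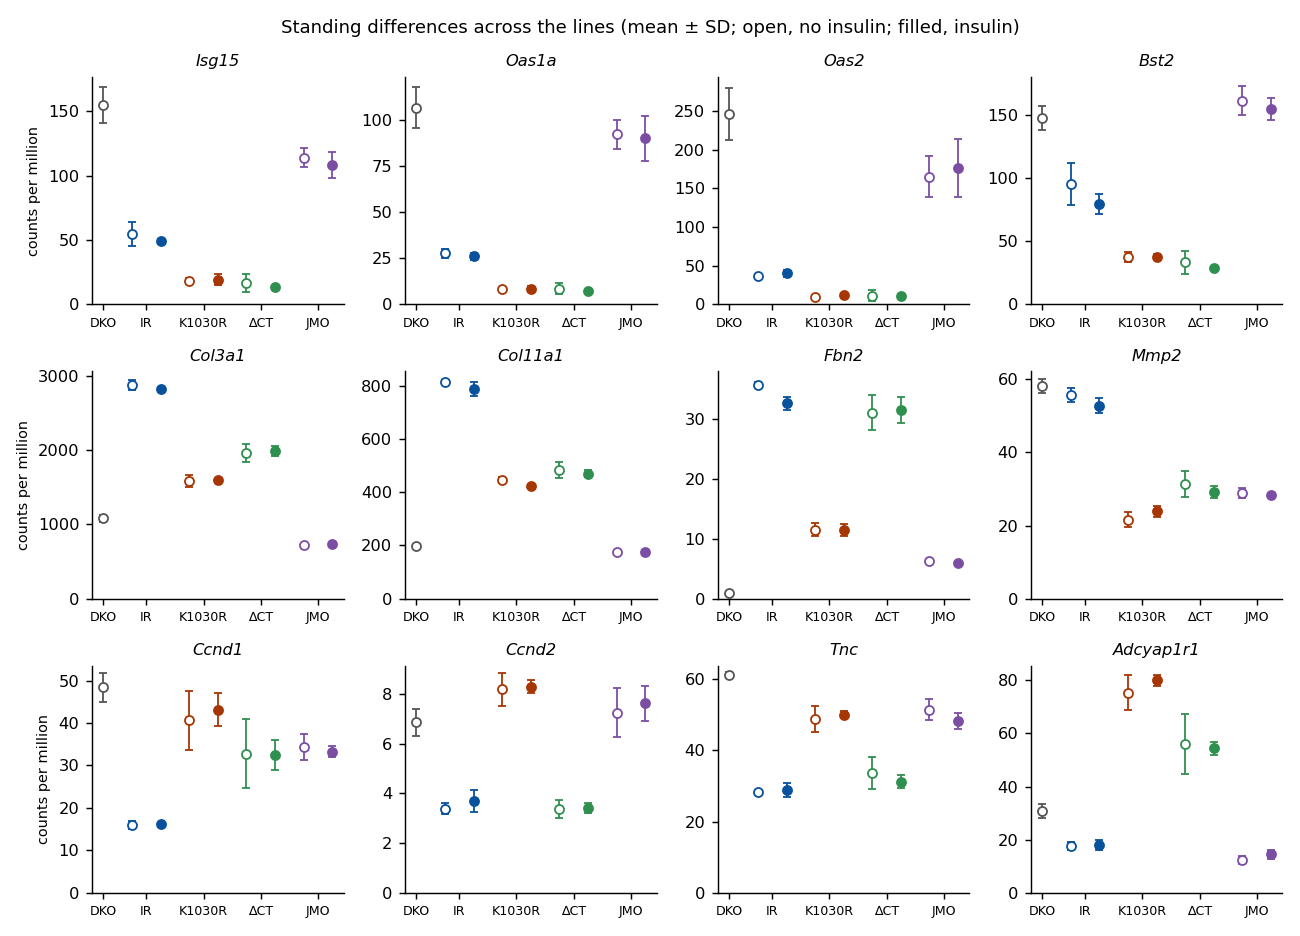
CPM (mean ± SD, n = 3, or 2 for ∆CT with insulin) of 12 standing genes in the DKO line and the lines with IR, K1030R, ∆CT, or JMO, with open circles for no insulin and filled circles for insulin. Isg15 is at 48.9 CPM in IR and 19.3 CPM in K1030R cells with insulin, Col3a1 at 2829 and 1595 CPM, and Ccnd1 at 16.1 and 43.2 CPM.

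The other lines without insulin placed these differences in libraries that the insulin comparison did not use. The comparisons with IR cells still take in the same IR line, so a level particular to that line enters each of them. Of the 160 genes lower in K1030R cells with insulin, 56 were called lower (0.675% of tested genes) and 0 higher in ∆CT than in IR cells, and 156 of 160 were lower in sign, as were 8077 of the 15402 tested genes. Against DKO cells, 68 of the 160 were called higher and 39 lower in IR cells (3.59% and 3.29% of tested genes), and 35 higher and 58 lower in K1030R cells (2.04% and 3.25%), with medians of 0.59 and -0.26 on the log2 scale, and both comparisons share the DKO libraries and show each line's own values. Of the 33 genes higher in K1030R cells, 0 were called higher and 20 lower in IR than in DKO cells, 5 higher and 7 lower in K1030R than in DKO cells, and 4 higher in ∆CT than in IR cells (0.0325% of tested genes). In JMO against IR cells 32 of the 160 were called higher and 66 lower (2.65% and 1.94% of tested genes). Between ∆CT and K1030R cells 2 of the 160 were called higher and 0 lower (0.013% and 0.026%), and without a minimum fold 40 were higher and 2 lower in ∆CT cells (1.49% and 1.94% of tested genes).

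Individual genes differed in how ∆CT cells stood. For Fbn2 ∆CT cells were at 31.1 CPM without insulin, near the 35.7 CPM of IR and above the 11.5 CPM of K1030R cells, with a log2 fold change from IR of -0.20 (edgeR adjusted p = 0.0175). For Ccnd2 ∆CT cells were at 3.37 CPM against 3.38 CPM in IR and 8.18 CPM in K1030R cells. For Col11a1 ∆CT cells were at 482 CPM against 814 CPM in IR and 444 CPM in K1030R cells (log2 -0.76 from IR, edgeR adjusted p = 1.12e-17), and for Ccnd1 at 32.8 CPM against 16 and 40.6 CPM. DKO cells had 0.852 CPM of Fbn2, 199 CPM of Col11a1, and 48.4 CPM of Ccnd1.

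Of 26 tested genes of cholesterol synthesis and uptake, 23 were higher and 1 lower in K1030R cells with insulin without a minimum fold (16.7% and 17.3% of all tested genes), with a median log2 fold change of 0.29 and a range from -0.14 (Insig1) to 0.53 (Acat2), and none was called. Without insulin 23 were higher and 0 lower (13.9% and 16.3% of tested genes, median 0.29). In ∆CT against IR cells without insulin 22 were higher and 0 lower (11.2% and 14.8% of tested genes, median 0.26). Of 15 genes of fatty acid synthesis and desaturation, 11 were higher and 2 lower in K1030R cells with insulin (16.7% and 17.3% of all tested genes). Their median was 0.21, from -0.45 (Acacb) to 0.54 (Elovl6). Glycolysis and glucose entry had 11 higher and 5 lower among 22 tested identifiers (16.7% and 17.3% of all tested genes, median 0.19). None of the 32 tested receptors, substrates, and kinases of insulin signalling was called (1.25% of all tested genes were). Without a minimum fold 8 were lower and 6 higher (17.3% and 16.7% of all tested genes), from -0.36 (Insr) to 0.23 (Hras).

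Of the other lists, the contractile cytoskeleton genes targeted by SRF had 7 higher and 1 lower of 12 (median 0.21), the lower one being Srf itself (-0.53), and chemokines and interleukins had 8 higher and 2 lower of 16, none called, from -0.63 (Cxcl10) to 0.94 (Ccl20). The imprinted growth genes had 0 higher and 4 lower of 9, and IGF ligands and binding proteins 1 higher and 4 lower of 6. Over all tested genes 16.7% were higher and 17.3% lower without a minimum fold.

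**Figure D5:**
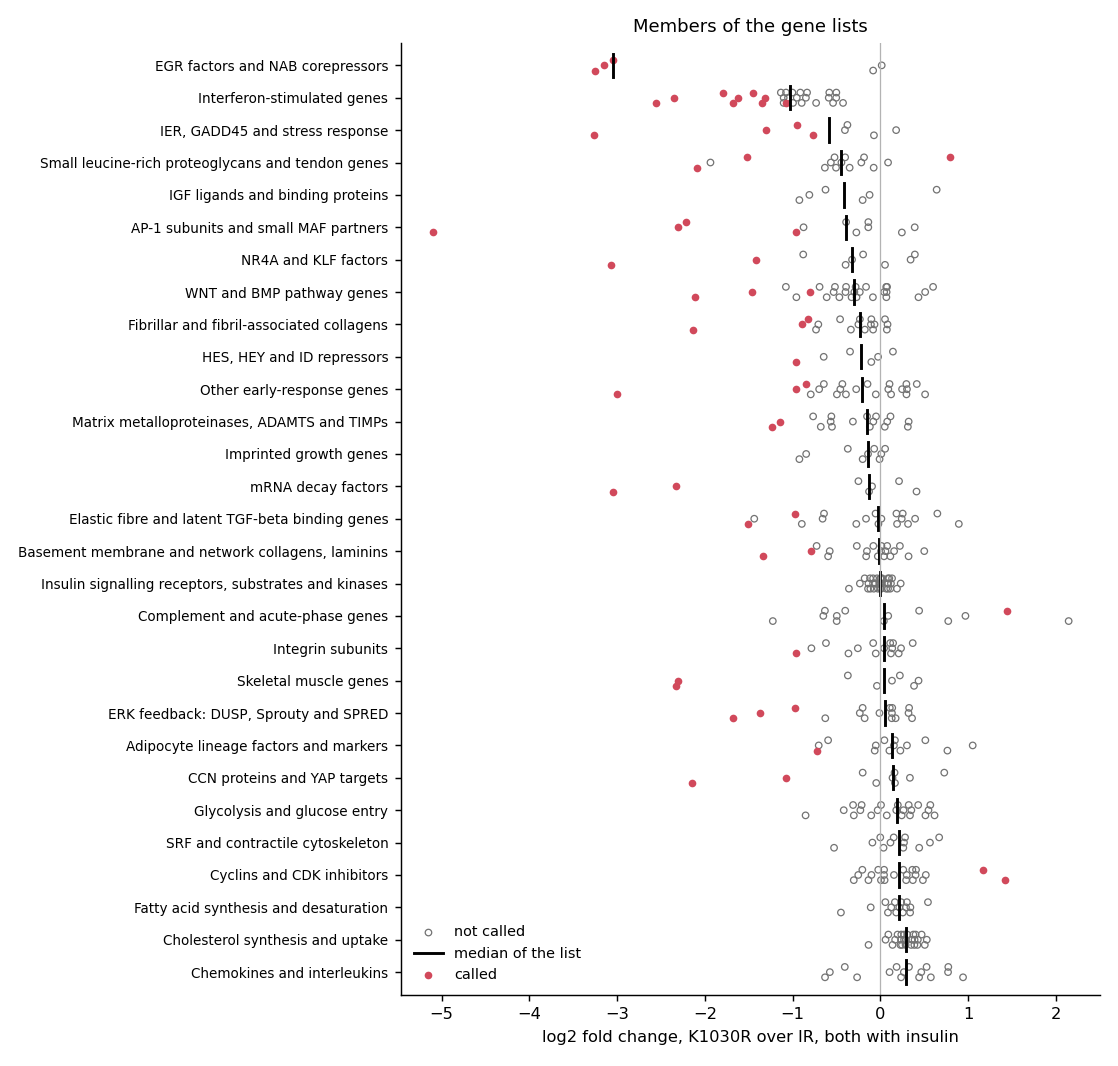
Log2 fold change of K1030R over IR cells, both with insulin (x axis), for the tested members of 29 gene lists (rows, ordered by median), with filled circles for called genes, open circles for others, and a vertical bar at each list's median. The interferon-stimulated genes lie wholly to the left of 0, with a median of -1.03, and cholesterol synthesis and uptake mostly to the right, with a median of 0.29.

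The 8 unplaced genes were all at low levels, where neither the basal difference nor the difference in insulin effect passed. The 5 with the largest fold changes were Gm47605, Gm7729, Gm5970, and Ifi203-ps, all annotated as pseudogenes, and Ifnz, an interferon zeta gene. Gm47605 had 34 counts in the 3 K1030R and 0 in the 3 IR libraries with insulin, at least 11.4-fold higher against a floor of 3 counts over the group, although IR cells without insulin had 0.507 ± 0.116 CPM (n = 3). Gm7729 had 33 against 2 counts, a ratio of 16.6 (exact 95% counting interval 4.24 to 142.5). Ifnz had 0.411, 0.608, and 0.634 CPM in K1030R and 0.0986, 0, and 0.0987 CPM in IR cells, while Gm5970 and Ifi203-ps were lower in K1030R cells (log2 -2.81 and -1.92). Floors and intervals cover counting error only, and reads of such copies can be assigned to relatives. The calls of Gm47605 were lost without any of the 6 insulin libraries (adjusted p from 0.0650 to 0.110), of Gm7729 without any of 5 of them (0.0517 to 0.208), of Ifi203-ps without any of 3 (0.0760 to 0.326), and of Gm5970 without either of 2 (0.0570 and 0.121), in edgeR against the minimum fold.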

How the data were processed

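RNA of the 26 libraries was poly(A)-selected and sequenced single-end and stranded. The authors trimmed reads with fastp, quantified transcripts with kallisto on the Ensembl mouse annotation of GRCm38, and summed them to genes with tximport, and they deposited 1 table of expected counts, of which 79.9% were whole numbers. The counts were rounded and fitted in edgeR 4.0.16 (R 4.3.3) with TMM scaling (factors 0.966 to 1.05) and 1 mean for each of 9 groups over all 26 libraries (17 residual degrees of freedom), with robust quasi-likelihood. Genes with more than 0.5 CPM in at least 4 libraries were tested. Calls used edgeR's test against a minimum fold of 1.5 with Benjamini-Hochberg adjustment, and single-gene p-values its quasi-likelihood test without one. The scripts were tested on simulated data.

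Groups followed the sample titles. Same-numbered libraries did not deviate together (median residual correlation 0.00863, against -0.00416 for different numbers), so no block was used. Between replicates of a group, chi-square per degree of freedom was 2.93 to 23.5, so none were copies of 1 library. CPM are TMM-scaled, and values per kilobase divide by the exonic length in GENCODE M21 on GRCm38. Promoters are RefSeq's on GRCm38.p6. Depth was 17228982 to 24694828 counts per library, and counting intervals and floors cover counting error only.

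Named are all early-response and both genes, the 12 lowest and 8 highest standing genes, up to 5 unplaced genes, called list members, Insr, and Igf1r. The members and gene lists were chosen with earlier results of these data known. Alternatives were RLE scaling, other count filters, unrounded counts, DESeq2 1.42.0, limma 3.58.1 on voom values, fewer libraries, a replicate block, other thresholds, and each library left out in turn. The use of all called genes in the comparisons with other lines, the interferon motif, and the comparison of ∆CT with IR cells under insulin were added after the data were seen. Insulin-treated JMO libraries entered the fit and appear only in the plot of standing genes.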

Additional observations from a re-analysis of the deposited data

Results flagged for a closer look

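The insulin effect differed between K1030R and IR cells in 57 genes by edgeR's interaction test, each smaller in K1030R cells (182 genes differed without IR basal replicate 3). The 25 early-response and both genes are among them. On the log2 scale the difference was -4.10 for Fos, -3.19 for Egr2, -2.95 for Arc, -2.93 for Ier2, -2.82 for Zfp36, -2.69 for Egr3, -2.56 for Nr4a1, -2.36 for Egr1, -2.35 for Btg2, -2.27 for Junb, -2.11 for Carmn, -1.94 for Ccn1, -1.88 for Dusp5, -1.62 for Fosb, and -1.42 for Ptgs2. It was -1.30 for Errfi1, -1.28 for Ier3, -1.13 for Klf2, -1.08 for Hes1, -0.94 for Jun, -0.87 for Dusp1, -0.70 for Gadd45g, -0.68 for Ppp1r15a, -0.62 for Rhob, and -0.58 for Ddit3.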

How the results depend on the processing

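No named gene changed direction under any alternative, and the cause of the shifts in the counts below was not tested. Without a filter on low counts, the genes called were 325 with insulin (186 of them shared with the 193) and 290 at baseline, those differing in insulin effect 291, and the classes early-response 57, both 14, unplaced 35, and early-response and both 71, and of the genes lower in K1030R cells 92 were called lower in ∆CT than in IR cells, 65 lower in IR and 95 lower in K1030R than in DKO cells. DESeq2 called 127 genes with insulin and 95 at baseline, with 103 standing and 0 unplaced, and limma called 97 at baseline with 4 unplaced. Without a minimum fold 5230 and 4650 genes were called, and at an adjusted p threshold of 0.001 103 and 65. With a minimum fold on the difference of the insulin effects 19 genes passed. With standing defined by a call at the minimum fold, 26 genes were early-response, 0 both, and 53 unplaced.

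Leaving out 1 library at a time gave 154 to 195 genes called with insulin, 113 to 162 at baseline, 122 to 163 standing, 14 to 18 early-response, 8 to 12 both, 3 to 13 unplaced, and 24 to 26 early-response and both. The genes differing in insulin effect numbered 52 to 182, the highest without IR basal replicate 3, which kept 56 of the 57, and the unplaced genes fell to 3 without IR insulin replicate 3, 4 without K1030R insulin replicate 2 or 3, and 5 without K1030R insulin replicate 1, and reached 13 without K1030R basal replicate 1. The genes lower in K1030R cells that were called lower in ∆CT than in IR cells numbered 45 to 58.

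With the replicate number as a block, 195 genes were called with insulin and 65 differed in insulin effect, and 6 calls were lost, among them those of Gbp8, Ppp1r15a, and Bst2 (adjusted p = 0.0574, 0.0525, and 0.0557 in edgeR). Depth limits genes with few reads, such as Trim30c with 23 and 2 counts in the 2 lines.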

Other observations

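Beyond the early-response and both genes, 31 genes differed in insulin effect without being called between the lines with insulin. Of these, 29 had counts in all 4 groups and no duplicate. These genes were chosen after their values were seen. Their differences ran from -1.05 to -0.23 on the log2 scale, 28 of the 29 rose with insulin in ∆CT cells (0.935% of tested genes rose), and 2 changed in K1030R cells. Dusp6, a phosphatase of ERK, went from 8.84 to 20.8 CPM in IR and from 11.9 to 13.4 CPM in K1030R cells (difference -1.05, edgeR adjusted p = 1.03e-05). Socs3, an inhibitor of cytokine signalling, went from 15.8 to 24.3 and from 16.9 to 15.0 CPM, and Hbegf, a growth factor of the EGF family, from 14.5 to 27.8 and from 15.9 to 17.8 CPM. Mcl1, an anti-apoptotic protein, went from 104 to 150 CPM in IR and from 104 to 106 CPM in K1030R cells, and Klf6, a Krüppel-like factor, from 141 to 205 and from 142 to 156 CPM. Insig1, which restrains sterol synthesis, was the 1 gene of the cholesterol list among them, from 565 to 715 CPM in IR and from 642 to 650 CPM in K1030R cells.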
